A study of Mus musculus with 18 samples.

Results

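The elastic fibre genes described here are Eln, Fbn1, Fbn2, Mfap2, Mfap4, Mfap5, Fbln1, Fbln2, Fbln5 and Emilin1. These 10 genes were taken by name from a table of 24445 gene symbols, with 1 transcript per symbol, and all 10 were found in it. RNA came from primary fibroblasts grown from tail tips of mice aged 2 months and harvested at passage 5. The study asked what Cas9 and guide RNAs against Lmna do in cells that carry a progeria allele of Lmna, written Pro. Cells of each mouse received, by lentivirus, the guide gLmna-2, the guide gLmna-1 or gMock, a guide without a match in the genome. The 3 genotypes were Pro/Pro;Cas9/+ (2 Pro alleles and a Cas9 transgene), Pro/+;+/+ (1 Pro allele and no Cas9) and +/+;Cas9/+ (no Pro allele and the Cas9 transgene). Every genotype had 2 mice, called replicate 1 and replicate 2, and each mouse gave 1 library per guide, so there were 9 groups of 2 libraries. The name of replicate 2 of Pro/+;+/+ does not tell whether it was 1 animal or a pool. Pro/+;+/+ cells differ from the other genotypes in both the Pro dose and Cas9, so those cannot be told apart there. The transduced cells were not sorted, and the labels do not name the promoter of the Cas9 transgene.

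Elastic fibres give skin, vessels and lung their recoil. They have a core of cross-linked elastin, the product of Eln, laid on a scaffold of microfibrils built from the fibrillins Fbn1 and Fbn2. Microfibril-associated glycoproteins (Mfap2, Mfap5 and Mfap4), fibulins (Fbln1, Fbln2 and Fbln5) and Emilin1 sit on or between these parts, and lysyl oxidases join the elastin chains. Fibrillin microfibrils also hold latent TGF-beta, and Fbln5 is needed for elastic fibres to form in mice.

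Depth ranged between 22424406 and 42622068 reads per library, worked out from the smallest steps in each column. Values are FPKM, reads scaled to transcript length and library depth, so levels can be compared between genes. Summed over 10 fibroblast markers they were 7077 to 9586 FPKM in the 18 libraries, with all 10 above the filter of 1 FPKM in 2 libraries, while all 5 endothelial markers stayed below it. The 8 macrophage markers summed to 431.3 to 1444 FPKM in Pro/Pro;Cas9/+, 67.6 to 552.5 in Pro/+;+/+ and 68.4 to 403.8 in +/+;Cas9/+ libraries. Lmna had 195.7 to 381.4 FPKM in the 18 libraries, and since an edit need not change a gene's read count this does not check the labels. In bulk RNA, fewer cells that make a transcript and less of it per cell cannot be told apart.

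Stretches of the fibulin genes that exist in only some transcripts are shown because the deposited table keeps the parts of a transcript apart, which lets their use be measured. They are read 5′ to 3′ on the plus strand of GRCm38 (mm10), and capitals mark cysteine codons (TGC or TGT) in the reading frame of the GENCODE transcript. The coding exon of Fbln2 at chr6:91259630-91259770 is 141 bases long and is part of 1 of its 2 RefSeq transcripts here. Fbln1 ends in 1 of 2 ways, called C and D, and the first 90 coding bases of each end lie at chr15:85251445-85251534 and chr15:85263259-85263348.
Fbln2 alternative exon: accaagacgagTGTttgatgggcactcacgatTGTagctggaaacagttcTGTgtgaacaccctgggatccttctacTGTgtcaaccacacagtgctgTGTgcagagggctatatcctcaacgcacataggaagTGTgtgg
Fbln1 C end: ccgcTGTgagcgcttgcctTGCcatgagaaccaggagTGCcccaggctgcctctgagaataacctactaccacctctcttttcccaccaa
Fbln1 D end: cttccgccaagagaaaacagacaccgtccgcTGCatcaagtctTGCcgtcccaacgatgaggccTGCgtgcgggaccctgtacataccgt
The Fbln2 exon carries 6 such codons and each of the 2 Fbln1 stretches carries 3.

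The cells made much microfibril RNA and hardly any elastin RNA. Fbln2 had the highest level of the 10 genes in each of the 9 groups, between 536.4 and 1182 FPKM in single libraries, and Mfap5 was second in each group by its mean, with 44.3 to 355.4 FPKM. Fbn1, Emilin1 and Fbln5 followed in an order that differed between groups, with ranges of 49.9 to 195.7, 55.8 to 141.8 and 26.6 to 94.4 FPKM. Fbln1 was sixth in every group, with 15.1 to 62.8 FPKM, and Mfap2 seventh, with 1.72 to 29.3 FPKM. In Pro/Pro;Cas9/+ cells under gMock, Mfap5, Emilin1 and Fbn1 averaged 81.7 ± 52.9, 78.4 ± 11.4 and 70.0 ± 28.4 FPKM (SD, n = 2 each), so these neighbours did not differ beyond their spread. Mfap2 and Fbn2 averaged 7.56 ± 8.27 and 7.50 ± 9.91 FPKM in that group (SD, n = 2 each) and overlapped as well.

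Eln, on chr5:134702595-134747323, had 0.088 to 0.792 FPKM, which rests on 8 to 88 reads per library. Its reads summed to 135 in Pro/Pro;Cas9/+ cells (exact Poisson 95% interval 113.2 to 159.8), 222 in Pro/+;+/+ cells (193.8 to 253.2) and 228 in +/+;Cas9/+ cells (199.4 to 259.6), over 6 libraries each. The sums are raw reads, not scaled to depth, which differed between libraries. These intervals cover counting error only. The libraries of a genotype ranged more widely than that, from 8 to 52 reads with 2 Pro alleles, 9 to 88 with 1 and 17 to 71 with none. Of the 585 Eln reads in the 18 libraries, 52.0% fell in the last exon at chr5:134702595-134703780, which holds 31.1% of the transcript length. Gm30003, on the other strand, overlaps exons of Eln, and the strand setting of the counts was not given, so some of these few reads may not be Eln. Mfap4, whose product binds elastin and fibrillin, had 0 to 28 reads per library. Its sums, again not scaled to depth, were 25 reads with 2 Pro alleles (16.2 to 36.9), 65 with 1 (50.2 to 82.9) and 63 with none (48.4 to 80.6). In the library with 0 reads, replicate 2 of Pro/Pro;Cas9/+ under gMock, 3 reads would be 0.087 FPKM. Eln and Mfap4 did not pass the filter, and the other 8 genes were tested among 12599 genes.

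**Figure D1:**
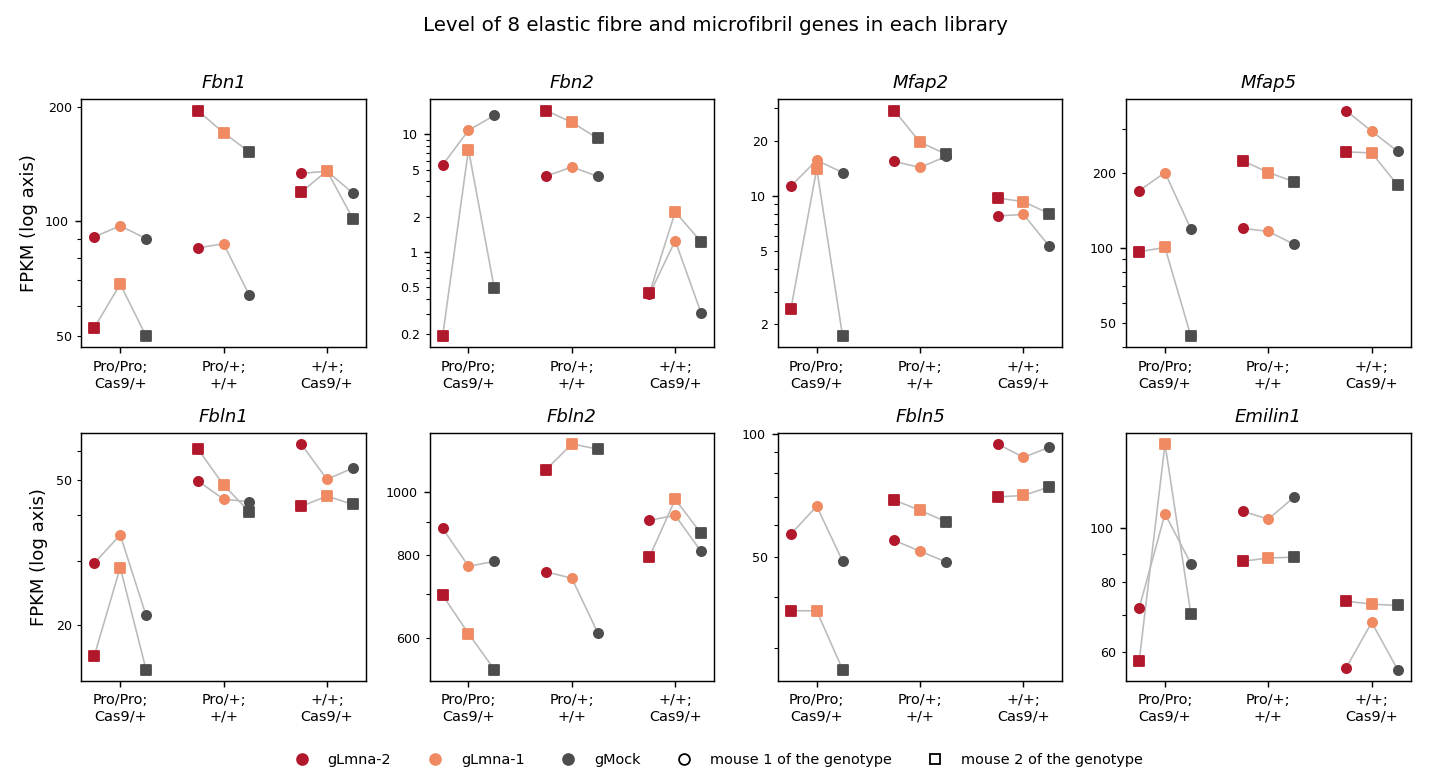
Level of the 8 tested genes in FPKM (log axis, a different range per gene) in each of the 18 libraries, grouped by genotype and, within it, gLmna-2, gLmna-1 and gMock from left to right. Circles are replicate 1, squares replicate 2, and lines join the libraries of 1 mouse. Mfap5 lies above the gMock library of its mouse with both guides in all 6 mice, and all 6 Fbln1 values of Pro/Pro;Cas9/+ cells lie below those of the other genotypes.

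The first comparison was between the Lmna guides and gMock in Pro/Pro;Cas9/+ cells, where Cas9 can act on the mutant alleles. Mfap5 passed as higher with each guide, and Fbln1 and Fbln5 passed as higher with gLmna-1 alone. With gLmna-2, Fbln1 and Fbln5 also lay above the gMock library of each mouse, without passing. For the mean of both guides, 1 of the 8 tested genes passed, Mfap5, where 0.0794% of all tested genes did, and 3 of 8 had an unadjusted p under 0.05, as did 8.37% of all genes. With gLmna-2, 1 of 8 passed, again Mfap5, against 0.357% of all genes, and 2 of 8 had an unadjusted p under 0.05, against 10.1%. With gLmna-1, 3 of 8 passed, all higher, where 0.976% of all genes passed and 0.603% were higher, and 6 of 8 had an unadjusted p under 0.05, against 18%. These genes, and the lists of other genes used below, were chosen with earlier results of these data known. Their shares beside those of all genes, here and below, are therefore description and not a test. All tests of guides were limma fits with the mouse as a block and Benjamini-Hochberg adjustment over the 12599 genes, at a threshold of 0.05. Over the 8 genes the median log2 change was 0.16 with gLmna-2 and 0.72 with gLmna-1, and over all tested genes it was 0.02 and -0.03. These medians rested unevenly on the mice: within replicates 1 and 2 they were 0.09 and 0.22 with gLmna-2, and 0.25 and 0.94 with gLmna-1. With single libraries left out in limma, that of gLmna-1 was lowest without replicate 2 of gLmna-1 (0.32) or of gMock (0.43), and that of gLmna-2 without replicate 1 of gLmna-2 (0.03) or replicate 2 of gMock (0.06) and highest without replicate 1 of gMock (0.31).

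Of the fibrillins, Fbn1, the main microfibril protein of postnatal tissue, had 91.1 and 52.6 FPKM with gLmna-2 in replicates 1 and 2, 97.4 and 68.4 FPKM with gLmna-1, and 90.1 and 49.9 FPKM with gMock. The 2 mice stood further apart than the guides did, and the log2 change of 0.16 for both guides (SE 0.09, adjusted p = 0.71 in limma) did not pass. Reads of Gm9913, which overlaps Fbn1 on the other strand, would be counted with it if strand was not used. Fbn2, the fibrillin of developing tissue, had 5.51 and 0.193 FPKM with gLmna-2, 10.8 and 7.45 FPKM with gLmna-1, and 14.5 and 0.491 FPKM with gMock. Its gMock and gLmna-2 levels were low in replicate 2 and its gLmna-1 level was not, so the gLmna-1 library stood at 15.2 times gMock in replicate 2 and at 0.746 times gMock in replicate 1. The 2 mice thus went opposite ways, and the change with gLmna-1 did not pass (log2 1.06, SE 0.52, adjusted p = 0.34 in limma).

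Among the microfibril-associated glycoproteins, Mfap5 (chr6:122513676-122529287) binds fibrillin microfibrils and growth factors held there. It had 169.4 and 96.4 FPKM with gLmna-2, 200.5 and 100.4 FPKM with gLmna-1, and 119.1 and 44.3 FPKM with gMock. Within each mouse both guide libraries lay above gMock, at 1.42 and 2.18 times its level with gLmna-2 and at 1.68 and 2.27 times with gLmna-1. The log2 change was 0.88 for both guides (SE 0.11, adjusted p = 0.0315), 0.81 for gLmna-2 (SE 0.13, adjusted p = 0.0385) and 0.96 for gLmna-1 (SE 0.13, adjusted p = 0.0269) in limma. These calls sat close to the threshold: without the mouse block, with libraries of this genotype alone, or without the filter on low values, Mfap5 had adjusted p-values of 0.0672 to 1.00 for these 3 comparisons. Leaving out single libraries moved its change for both guides between 0.63 and 1.13 on the log2 scale and ended the call in 16 of 18 cases, with adjusted p-values up to 0.227. The macrophage markers summed to 1444 and 775.7 FPKM with gLmna-2, 431.3 and 1109 FPKM with gLmna-1, and 548.8 and 705.4 FPKM with gMock. They were thus above gMock in 3 of these 4 pairs and below it with gLmna-1 in replicate 1, where Mfap5 was at 1.68 times gMock. The smooth muscle and myofibroblast markers summed to 2406 and 1523 FPKM with gLmna-2, 1636 and 1629 FPKM with gLmna-1, and 1728 and 1013 FPKM with gMock, and their part in the result was not tested.

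Mfap2, the other glycoprotein of this pair, had 11.3 and 2.41 FPKM with gLmna-2, 15.7 and 14.1 FPKM with gLmna-1, and 13.4 and 1.72 FPKM with gMock. As for Fbn2, replicate 2 was low under gMock and gLmna-2 and not under gLmna-1, where it was 8.19 times the gMock level, against 1.17 times in replicate 1. The change with gLmna-1 did not pass (log2 1.34, SE 0.42, adjusted p = 0.15 in limma). Without the gLmna-1 library of replicate 1, 7 of the 8 genes passed for gLmna-1, with Fbln2 the exception, where 14.1% of all genes passed in that fit, so the comparison then rested on replicate 2 alone for that guide.

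Of the fibulins, which link elastin, microfibrils and basement membranes, Fbln1 (chr15:85205949-85251885) had 29.6 and 16.5 FPKM with gLmna-2, 35.4 and 28.8 FPKM with gLmna-1, and 21.3 and 15.1 FPKM with gMock. Both gLmna-1 libraries lay above both gMock libraries, and the rise with gLmna-1 was 0.80 on the log2 scale (SE 0.14, adjusted p = 0.0417 in limma). With gLmna-2 the difference was 0.29 (SE 0.14, adjusted p = 0.54 in limma). Fbln5 (chr12:101746565-101819119) had 57.0 and 37.1 FPKM with gLmna-2, 66.5 and 37.0 FPKM with gLmna-1, and 48.9 and 26.6 FPKM with gMock. Each guide library lay above gMock of its mouse, and the rise with gLmna-1 was 0.45 (SE 0.07, adjusted p = 0.0390 in limma), against 0.34 with gLmna-2 (SE 0.07, adjusted p = 0.13 in limma). For gLmna-2 against gLmna-1 the Fbln5 difference was -0.11 (SE 0.07, adjusted p = 0.42 in limma), so a difference between the guides was not shown. Without the block, with this genotype alone or without the filter, the adjusted p-values of Fbln1 and Fbln5 with gLmna-1 were 0.0679 to 0.723. Leaving out single libraries ended the call of Fbln1 in 15 of 18 cases and that of Fbln5 in 14 of 18, with adjusted p-values up to 0.385 and 0.435. Fbln2 had 879.6 and 695.6 FPKM with gLmna-2, 770.1 and 608.4 FPKM with gLmna-1, and 783.3 and 536.4 FPKM with gMock, and it passed with neither guide (adjusted p = 0.51 with gLmna-2 and 0.81 with gLmna-1 in limma).

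Emilin1 (chr5:30913786-30921273), a glycoprotein at the border of elastin and microfibrils, separated the guides. It had 71.9 and 57.7 FPKM with gLmna-2, 106.2 and 141.8 FPKM with gLmna-1, and 86.5 and 70.3 FPKM with gMock. Both gLmna-2 libraries were below and both gLmna-1 libraries above the gMock library of their mouse. Against gMock neither guide passed in limma, with a log2 change of -0.27 for gLmna-2 (SE 0.16, adjusted p = 0.68) and 0.65 for gLmna-1 (SE 0.16, adjusted p = 0.0857).

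**Figure D2:**
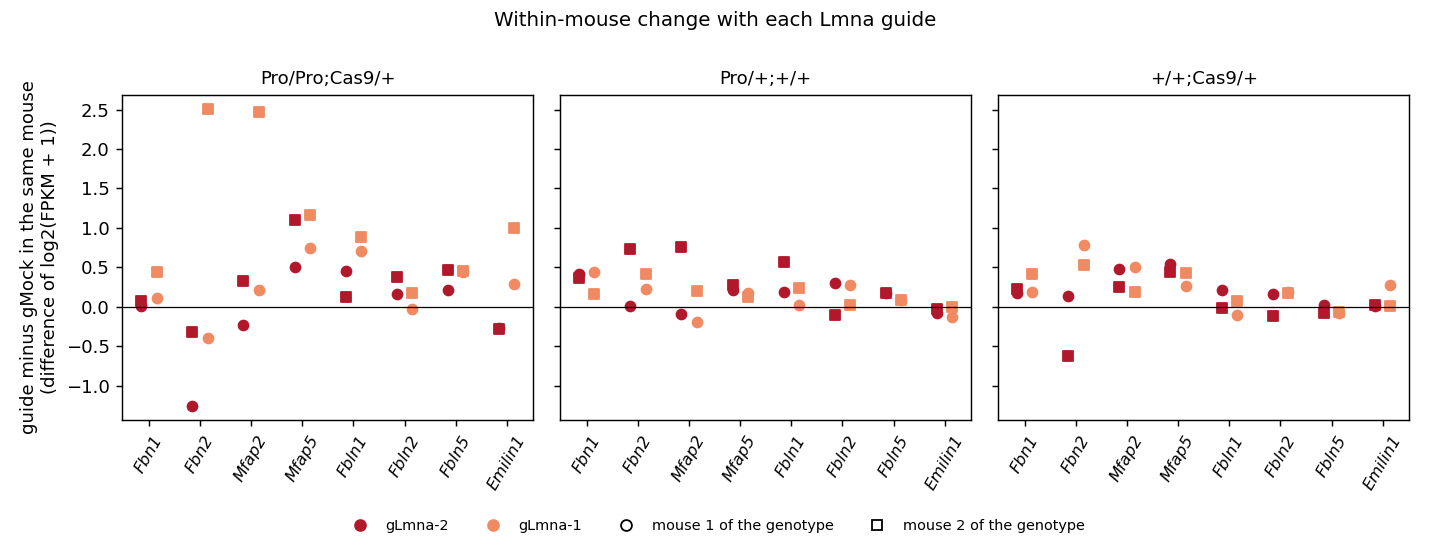
Difference of log2(FPKM + 1) between each Lmna guide and gMock in the same mouse, for the 8 tested genes (x axis) in the 3 genotypes (panels). Dark red is gLmna-2, orange gLmna-1, circles are replicate 1 and squares replicate 2. Mfap5 is above 0 in all 12 pairs, and Fbn2 and Mfap2 differ most between the mice, in Pro/Pro;Cas9/+ cells with gLmna-1.

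Between the guides in Pro/Pro;Cas9/+ cells, gLmna-2 was set against gLmna-1. Emilin1 fell by 0.92 on the log2 scale with gLmna-2 (SE 0.16, adjusted p = 0.0112 in limma) and was the only 1 of the 8 genes that passed, where 9.95% of all tested genes did (3.02% lower and 6.92% higher). Its gLmna-2 level was 0.677 times that of gLmna-1 in replicate 1 and 0.407 times in replicate 2. Of the 18 fits in limma that each left out 1 library, 1 ended the call, that without replicate 2 of gLmna-2 (-0.73, adjusted p = 0.0943). The fit without replicate 2 of gLmna-1 gave -0.56 (adjusted p = 0.0241). Without the mouse block its adjusted p was 0.0693 and with this genotype alone 0.209. Fbln1 stood just outside the threshold, at -0.51 (SE 0.14, adjusted p = 0.0501 in limma), and Fbn2 next, at -1.84 (SE 0.52, adjusted p = 0.0565). Without the gLmna-1 library of replicate 1, Fbn1, Fbn2, Mfap2 and Fbln1 passed beside Emilin1, where 20.9% of all genes passed in that fit. In the fit of all libraries 5 of 8 genes had an unadjusted p under 0.05, all lower, against 25.2% of all genes. Over the 8 genes the median log2 difference was -0.37, with 7 of 8 below 0, and over all tested genes it was 0.06. That median was -0.57 in replicate 2 and -0.24 in replicate 1, and -0.23 in the fit without replicate 2 of gLmna-1.

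Other elastic fibre genes were read from 8 lists in the same comparison. Unless another comparison is named, rose and fell here mean higher or lower with gLmna-2 than with gLmna-1. Such a difference does not by itself tell which guide departed from gMock. In these lists 11 genes passed, where 9.95% of all tested genes did (3.02% lower and 6.92% higher). The number tested in each list is given below. These calls depended on the fit: 0 of the 11 passed in limma with this genotype alone and 1, Itgb1, without the mouse block. Without the filter on low values Itgav, Itgb1, Itgb3 and Loxl1 passed. Leaving out single libraries kept 2 to 11 of them, with 2 (Itgav and Itgb1) without replicate 2 of gLmna-2, 3 (Itgav, Itgb1 and Itgb3) without replicate 1 of gLmna-2 and 4 (those 3 and Efemp2) without replicate 2 of gLmna-1. Of 5 cross-linking enzymes, all tested, 3 fell with gLmna-2 relative to gLmna-1 and 1 rose. Lox, which starts the cross-links of elastin and collagen, had 1540 and 1060 FPKM with gLmna-2 and 2239 and 2936 FPKM with gLmna-1, and it fell by 1.00 (SE 0.24, adjusted p = 0.0303 in limma). Loxl1, the enzyme tied to elastin renewal in mice, fell by 0.67 (SE 0.13, adjusted p = 0.0164) and Loxl2 fell by 0.42 (SE 0.11, adjusted p = 0.0393) in the same limma fit, while Loxl3 rose by 0.90 (SE 0.23, adjusted p = 0.0391). Of the other fibulins, 4 of 5 were tested and Efemp2, which brings lysyl oxidase to elastin, fell by 0.45 (SE 0.10, adjusted p = 0.0237 in limma). It had 688.3 and 648.7 FPKM with gLmna-2 and 997.9 and 835.2 FPKM with gLmna-1. Of 8 integrins, which bind microfibrils and fibronectin at the cell surface, 7 were tested. Of these, 3 passed as higher with gLmna-2 than with gLmna-1, where 6.92% of all genes did. Itgb1 had 560.7 and 601.2 FPKM with gLmna-2 and 369.6 and 376.7 FPKM with gLmna-1 (log2 change 0.64, SE 0.08, adjusted p = 0.00437 in limma). Itgav (0.67, SE 0.08, adjusted p = 0.00378) and Itgb3 (1.14, SE 0.16, adjusted p = 0.0063) were the others in limma, and Itgav fell with gLmna-1 against gMock (-0.68, SE 0.08, adjusted p = 0.0243), a call that was lost without the mouse block and with this genotype alone. Of 9 ADAMTS and ADAMTS-like genes, 7 were tested, Adamtsl5 rose (0.63, SE 0.16, adjusted p = 0.0423 in limma) and Adamtsl3 fell by 0.62 (SE 0.16, adjusted p = 0.0407).

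Of 10 elastin-degrading proteases, 6 were tested and 1 rose with gLmna-2 relative to gLmna-1, where 6.92% of all genes did, the macrophage elastase Mmp12. It had 8.04 and 24.9 FPKM with gLmna-2 and 1.58 and 11.4 FPKM with gLmna-1 (log2 change 1.44, SE 0.35, adjusted p = 0.0357 in limma). The macrophage marker sum was higher with gLmna-2 than with gLmna-1 in replicate 1, at 1444 against 431.3 FPKM, and lower in replicate 2, at 775.7 against 1109 FPKM, while Mmp12 was higher in both, and the markers' part in this result was not tested. In limma 8 of the 8 macrophage markers had a positive difference, with a median of 0.59 on the log2 scale, and none passed. None of the 4 latent TGF-beta binding proteins, the 6 matrix partners and the 1 tested gene of the EMILIN and multimerin family passed in limma in this comparison. Against gMock, Loxl1 rose with gLmna-1 (0.87, SE 0.13, adjusted p = 0.0301 in limma), with 100.9 and 70.3 FPKM against 65.4 and 31.7 FPKM in gMock libraries. That call too was lost without the mouse block, with this genotype alone and without the filter, and no gene of these 8 lists passed with gLmna-2 or with both guides. For both guides against gMock, the smallest unadjusted p-values of the latent TGF-beta binding proteins were those of Ltbp1 and Ltbp2, with log2 changes of -0.33 (SE 0.09, adjusted p = 0.32) and -0.31 (SE 0.09, adjusted p = 0.38) in limma. Fibroblast markers themselves differed between the guides in limma, where 9.95% of all genes passed. Of 10 tested, Col1a1 and Col3a1 passed as lower and Thy1 and Prrx1 as higher with gLmna-2, and 5 had a positive and 5 a negative difference. Of 6 smooth muscle and myofibroblast markers, Des alone passed, as higher, and 5 of the 6 had a positive difference. Of 4 tested cartilage markers, Col2a1 and Comp passed as lower, and 1 of the 4 had a positive difference. Of 2 tested adipocyte markers, Fabp4 passed as lower and the other had a positive difference. The cartilage markers summed to 32.0 and 279.1 FPKM with gLmna-2 and 206.9 and 479.3 FPKM with gLmna-1. Thy1 was also higher with gLmna-2 than with gMock (log2 change 1.59, adjusted p = 0.0219 in limma). That call was lost without the mouse block and with this genotype alone, where 0 genes passed. With this genotype alone 0 genes passed between the guides too, so those marker calls were lost as well. The part of these markers in the results was not tested.

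**Figure D3:**
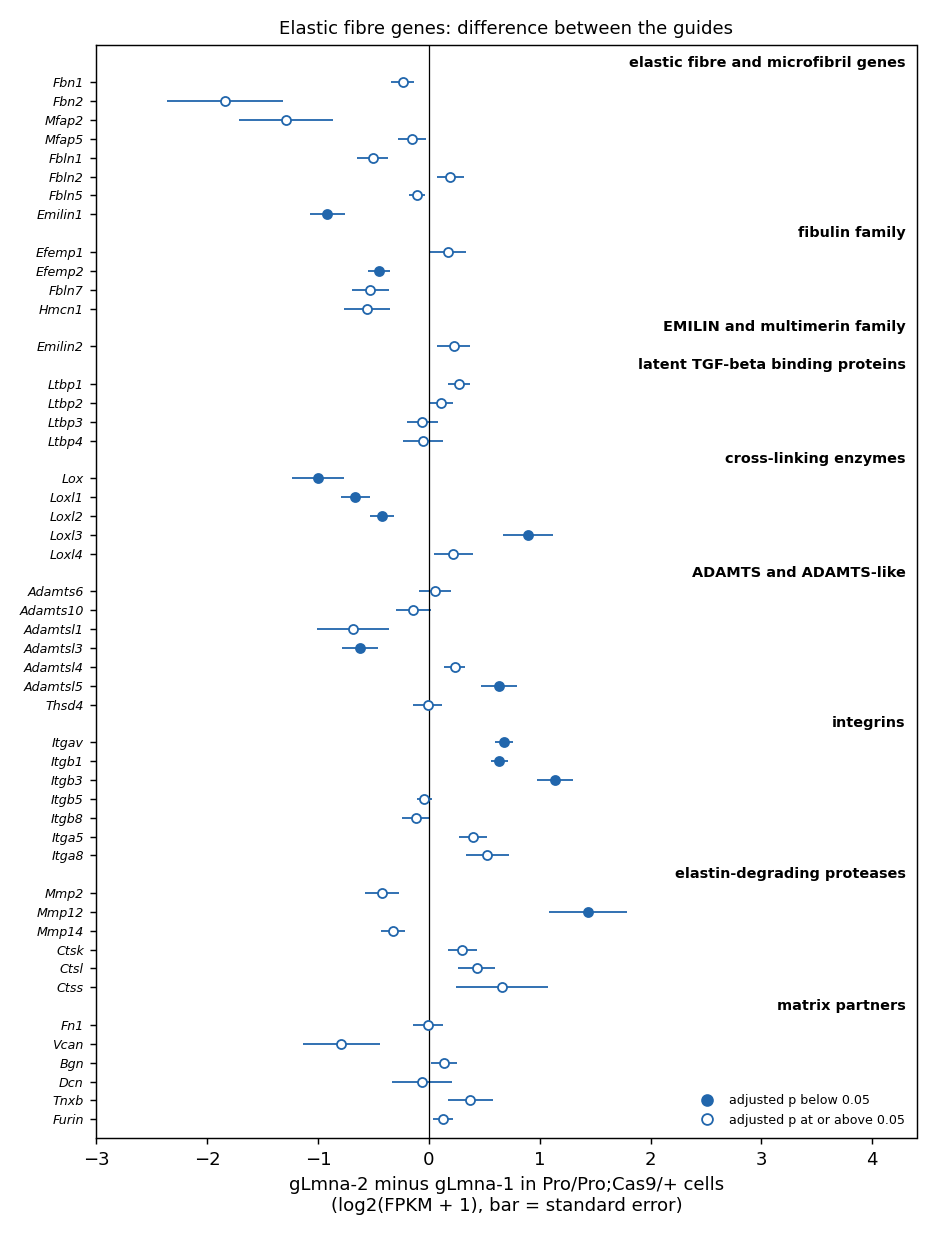
Difference between gLmna-2 and gLmna-1 in Pro/Pro;Cas9/+ cells on the log2(FPKM + 1) scale (x axis), with standard errors, for the 8 tested genes and the tested genes of the 8 lists. Filled points passed an adjusted p of 0.05. Emilin1, Efemp2, Lox, Loxl1 and Loxl2 lie below 0 and the integrins Itgav, Itgb1 and Itgb3 above it.

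The same guides were set against gMock in the genotypes that serve as controls. In Pro/+;+/+ cells, which have no Cas9, 0 of the 8 genes passed with both guides in limma, as did 0% of all genes, and Fbn1 alone had an unadjusted p under 0.05, against 3.15% of all genes. Fbn1 had 85.2 and 195.7 FPKM with gLmna-2, 87.3 and 171.0 FPKM with gLmna-1, and 63.9 and 152.3 FPKM with gMock, a log2 difference of 0.35 (SE 0.09, adjusted p = 1.00). Mfap5 had 119.7 and 223.7 FPKM with gLmna-2, 116.4 and 200.5 FPKM with gLmna-1, and 103.2 and 184.1 FPKM with gMock, a difference of 0.20 (SE 0.11, adjusted p = 1.00 in limma). In +/+;Cas9/+ cells 0 of 8 passed in limma, where 0.849% of all genes did, and 2 of 8, Fbn1 and Mfap5, had unadjusted p-values under 0.05, against 7.61%. Mfap5 had 355.4 and 242.6 FPKM with gLmna-2, 293.3 and 240.2 FPKM with gLmna-1, and 243.9 and 178.6 FPKM with gMock, a difference of 0.42 (SE 0.11, adjusted p = 0.29 in limma). limma voom on reads recovered from the table also called 0 members in either genotype.

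Mfap5 and Fbn1 thus stood above the gMock library of their mouse in all 12 pairs of a guide library and its gMock library, cells without Cas9 included. Of all tested genes, 0.516% did so and 0.611% stood below in all 12, as no member did, and the pairs of 1 mouse share their gMock library. Fbln1 was above gMock in 10 of 12 pairs, Mfap2, Fbln2 and Fbln5 in 9, Fbn2 in 8 and Emilin1 in 6. The difference of guide effects between genotypes was tested itself. For Mfap5 the effect in Pro/Pro;Cas9/+ cells exceeded that in Pro/+;+/+ cells by 0.68 (SE 0.16, adjusted p = 1.00 in limma) and that in +/+;Cas9/+ cells by 0.46 (SE 0.16, adjusted p = 1.00). For Fbln5 it exceeded that in +/+;Cas9/+ cells by 0.44 (SE 0.09, adjusted p = 0.20 in limma). No member passed in these 3 tests, where 0%, 0.0476% and, for +/+;Cas9/+ minus Pro/+;+/+, 0.294% of all genes did, so a guide effect particular to Pro/Pro;Cas9/+ cells was not shown. At an unadjusted p under 0.05 the effects of Mfap5 and Fbln5 were larger than in cells without Cas9, against 4.15% of all genes, and those of Mfap5, Fbln1 and Fbln5 larger than in cells without a Pro allele, against 3.03%. Between these controls 0 of 8 had such a p, against 3.84%, and voom called 0 members in each of the 3 tests. Between gLmna-2 and gLmna-1, 0 of 8 passed in +/+;Cas9/+ and in Pro/+;+/+ cells in limma, as did 0% of all genes, and no member had an unadjusted p under 0.05 in either, against 8.01% and 2.11% of all genes.

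The genotypes were compared under gMock with 2 mice against 2. Pro/Pro;Cas9/+ cells had less Fbln1 than either other genotype in every library, but 0 of the 8 genes passed in limma in any comparison of genotypes. Under gMock, Fbln1 had 21.3 and 15.1 FPKM in Pro/Pro;Cas9/+ cells, 43.6 and 40.9 FPKM in Pro/+;+/+ cells, and 53.9 and 42.9 FPKM in +/+;Cas9/+ cells. The log2 difference of Pro/Pro;Cas9/+ from +/+;Cas9/+ cells was -1.37 (SE 0.19, adjusted p = 0.0675 in limma), where 0.397% of all genes passed, and from Pro/+;+/+ cells -1.19 (SE 0.19, adjusted p = 0.97), where 0% did. Fbln5 had 48.9 and 26.6 FPKM in Pro/Pro;Cas9/+ cells, 48.7 and 61.1 FPKM in Pro/+;+/+ cells, and 92.7 and 74.2 FPKM in +/+;Cas9/+ cells under gMock. Its difference from +/+;Cas9/+ cells was -1.18 (SE 0.30, adjusted p = 0.23 in limma), and that of Mfap5 was -1.51 (SE 0.51, adjusted p = 0.36). Against +/+;Cas9/+ cells these 3 of 8 genes had an unadjusted p under 0.05, against 10.4% of all genes. Against Pro/+;+/+ cells 1 of 8 had, Fbln1, against 4.34% of all genes. Voom called 0 members in both comparisons. Under gMock the macrophage markers summed to 548.8 and 705.4 FPKM in Pro/Pro;Cas9/+ cells, 316.8 and 67.6 FPKM in Pro/+;+/+ cells, and 241.2 and 68.4 FPKM in +/+;Cas9/+ cells, and all 8 had a positive difference from +/+;Cas9/+ cells. The cartilage marker sums had a mean over the 2 mice of 304.9 FPKM with 2 Pro alleles, 163.7 FPKM with 1 and 56.6 FPKM with none, and the 4 tested were all higher than in +/+;Cas9/+ cells (median log2 difference 1.27). The 6 smooth muscle and myofibroblast markers were all lower than in +/+;Cas9/+ cells (median -0.43), with sums of 1728 and 1013 FPKM in Pro/Pro;Cas9/+ cells against 1793 and 2325 FPKM. No gene of these 3 marker lists passed in limma, and their part in the differences was not tested. Of the 10 fibroblast markers, Thy1 (log2 difference -3.26, adjusted p = 0.0422) and Pdgfra (-1.16, adjusted p = 0.0375) passed as lower in Pro/Pro;Cas9/+ than in +/+;Cas9/+ cells under gMock in limma. Both calls were lost with the replicate number as a block, where 0 genes passed. That block joins mice of different genotypes by their number alone and leaves fewer degrees of freedom. A positive difference was seen for 4 of the 10, Lum the most (1.52, adjusted p = 0.34 in limma), and the median was -0.17.

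With the Lmna guides Fbln1, Fbln5 and Mfap5 again had lower values. Pro/Pro;Cas9/+ cells differed from +/+;Cas9/+ cells by -0.87 for Fbln1 (SE 0.21, adjusted p = 0.12), by -0.73 for Fbln5 (SE 0.26, adjusted p = 0.25) and by -1.05 for Mfap5 (SE 0.39, adjusted p = 0.27) in limma, where 0.595% of all genes passed. Emilin1 was higher by 0.40 (SE 0.13, adjusted p = 0.21 in limma), and these 4 genes had unadjusted p-values under 0.05, against 16.3% of all genes, with 0 called by voom. Taking all 6 libraries of a genotype, Fbn1, Fbln1 and Fbln5 of Pro/Pro;Cas9/+ cells lay wholly below +/+;Cas9/+ cells, 3 of 8 genes against 3.6% of all genes, and Fbln1 wholly below Pro/+;+/+ cells, 1 of 8 against 0.738%. None of the 8 lay wholly above, where 3.09% of all genes did against +/+;Cas9/+ cells and 0.976% against Pro/+;+/+ cells. Libraries of 1 mouse are not independent, so these counts compare 2 mice with 2. Pro/+;+/+ cells lay wholly above +/+;Cas9/+ cells for Fbn2, Mfap2 and Emilin1, against 5.76% of all genes, and wholly below for Fbln5, against 10.1%. Under gMock the differences of Pro/+;+/+ from +/+;Cas9/+ cells were 2.13 for Fbn2 (SE 1.06, adjusted p = 0.47), 1.23 for Mfap2 (SE 0.73, adjusted p = 0.53) and 0.65 for Emilin1 (SE 0.20, adjusted p = 0.30), and none passed in limma, where 0.413% of all genes did. Emilin1 alone had an unadjusted p under 0.05, against 12.5% of all genes, and voom called 0. Of the 8 lists, Efemp1, a fibulin of fascia and eye, was lower in Pro/Pro;Cas9/+ than in +/+;Cas9/+ cells under gMock, with 84.8 and 93.8 FPKM against 490.7 and 309.5 FPKM (log2 difference -2.12, SE 0.23, adjusted p = 0.0419 in limma), and under both guides (-1.67, SE 0.17, adjusted p = 0.0384). Adamtsl5 was lower under both guides (-0.88, SE 0.08, adjusted p = 0.0294 in limma). None of these 3 calls held without the filter on low values or with the replicate number as a block. The Efemp1 call under gMock was lost with each of the 6 gMock libraries left out, and both calls under the guides were lost without replicate 1 of either guide or replicate 2 of gLmna-1 in Pro/Pro;Cas9/+ cells, or replicate 2 of gLmna-2 in +/+;Cas9/+ cells. No other gene of the lists passed between genotypes.

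Much of the variation of these genes lay between mice, which includes the genotypes. Over the 18 libraries, 92.0% of the variation of log2(FPKM + 1) lay between the 6 mice for Fbn1, 92.8% for Fbln5, 83.3% for Mfap5 and Fbln1 and 52.1% for Emilin1, against a median of 53.1% for all tested genes. Fbn2 varied most, with a highest level 82.8 times the lowest and an SD of 1.36 on the log2 scale, and Fbln2 least, with 2.2 times and 0.31. The median SD of all tested genes was 0.18. The genes nearest to Mfap5 in their log2 pattern over the 18 libraries, by the root mean square difference after centring, among 8116 genes with a mean of at least 5 FPKM, were Cd248 (0.21), Fbln5 (0.30), Adamts2 (0.30), Cdh11 (0.31) and Tmem119 (0.32). Cd248 codes for a surface protein of fibroblasts and pericytes, Adamts2 for the enzyme that trims procollagen and Cdh11 for a cadherin of mesenchymal cells. The median of this difference over the 8116 genes was 0.73. Fbn1 stood at rank 20 and Fbln1 at rank 45, whereas Emilin1, Mfap2 and Fbn2 stood at ranks 7545, 7561 and 8071. The 18 values share 6 mice, and no test was made of this likeness. For Eln, which did not pass the filter, it was not computed.

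**Figure D4:**
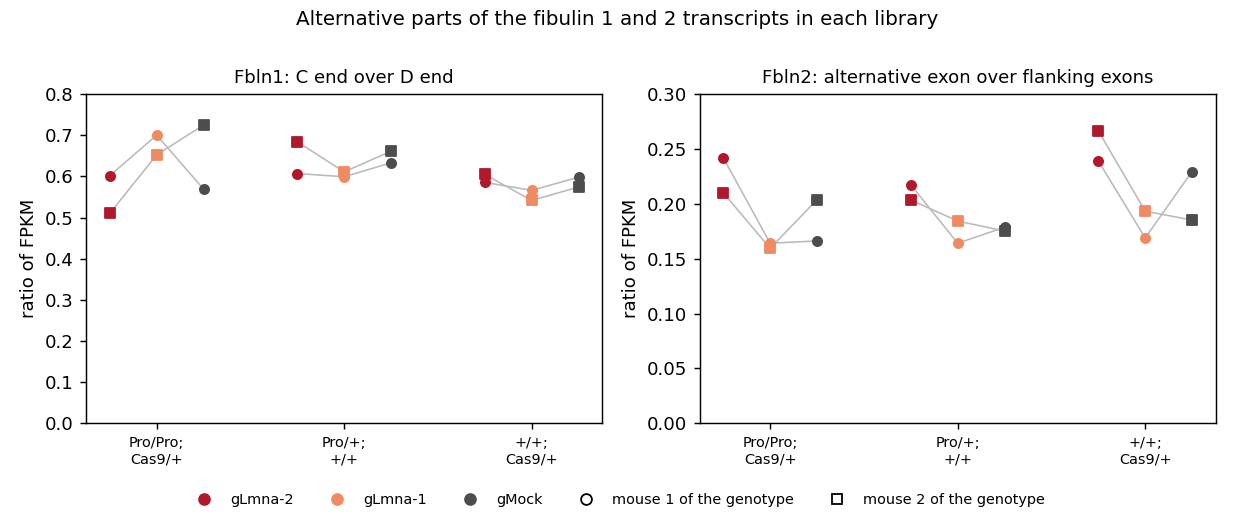
Ratio of FPKM (y axis from 0) of the C end to the D end of Fbln1 (left) and of the alternative exon to its 2 flanking exons in Fbln2 (right) in each library, grouped by genotype and, within it, gLmna-2, gLmna-1 and gMock from left to right. Circles are replicate 1, squares replicate 2, and lines join the libraries of 1 mouse. The Fbln2 ratio is highest with gLmna-2 in all 6 mice.

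The parts shown above as sequence were measured in every library. The coding part of the Fbln1 C end had 9.23 to 45.3 FPKM and the 3 coding parts of the D end had 16 to 72.4 FPKM, which rest on 78 to 576 and 151 to 980 reads. The ratio of C to D was 0.51 to 0.68 with gLmna-2, 0.54 to 0.70 with gLmna-1 and 0.57 to 0.72 with gMock, so D was the more abundant end in every library. By genotype it was 0.63 ± 0.08 in the libraries with 2 Pro alleles, 0.63 ± 0.03 in those with 1 and 0.58 ± 0.02 in those with none (SD over 6 libraries of 2 mice each), differences within the spread. The Fbln1 level given and tested above is that of the transcript with the C end, averaged over its 17 parts. These include exons that the D transcript shares, so it mixes both forms and is not the level of the C end alone. In replicate 1 of Pro/Pro;Cas9/+ under gMock it was 21.3 FPKM, beside 13.4 for the C end, 23.5 for the D end and 26.8 for shared exons. Both ends were low in Pro/Pro;Cas9/+ cells, with 9.23 to 26.1 FPKM for C and 16 to 37.3 FPKM for D. In cells without a Pro allele they had 29.2 to 42.4 and 50.9 to 72.4 FPKM.

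The alternative Fbln2 exon had 94.7 to 221.2 FPKM, on 344 to 1091 reads, beside 526.5 to 1201 FPKM in the exons next to it (chr6:91257725-91257826 and chr6:91263339-91263473). Its ratio to these exons was 0.16 to 0.27, so most Fbln2 transcripts lacked the exon. With gLmna-2 the ratio was 0.24 and 0.21 in the mice with 2 Pro alleles, 0.22 and 0.20 in those with 1 and 0.24 and 0.27 in those with none. With gLmna-1 it was 0.16 in both mice with 2 Pro alleles, 0.16 and 0.18 in those with 1 and 0.17 and 0.19 in those with none. With gMock it was 0.17 and 0.20 in the mice with 2 Pro alleles, 0.18 in both with 1 and 0.23 and 0.19 in those with none. The gLmna-2 library was highest in 6 of 6 mice, those without Cas9 included. Over the 6 mice the gLmna-2 and gLmna-1 ranges did not overlap. The gMock range (0.17 to 0.23) overlapped that of gLmna-2 (0.20 to 0.27). This contrast was noticed among the values and was not tested, and how many exons of other genes show such an order was not counted. Values of short parts carry a bias from their length and sequence, and whether it was the same in every library was not tested.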

How the data were processed

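The submitters' processing notes name STAR 2.4.0k, FastQC 0.11.2 and HOMER as tools and mm10 as the build. The deposited table gives FPKM made by the authors for exonic reads, per the file headers, in 404759 rows that are parts of 36795 transcripts. The deposited table also gives the length of each part in bases, per the file headers. The strand setting and the counting of reads that match several places are not given in the sources used here. Of 24 library columns, 18 match labelled samples and 6 match none and were not used.

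Rows of genes had been assumed in the plan, so parts were combined by length into transcripts, and the transcript with the highest mean FPKM stood for its symbol. For Fbln1 this was the transcript with the C end. Values converted to reads were whole to within 0.05 in 100% of cases in every library, and this gave the depth. The filter kept genes that reached 1 FPKM in 2 or more libraries. Tests used limma 3.58.1 with a trended prior (R 4.3.3) on log2(FPKM + 1), a scale that understates changes of low genes. The 18 libraries entered 1 fit of guide effects, in which the mouse was a block and 6 residual degrees of freedom remained, and genotypes were compared on 1 value per mouse, with 3. The pairing comes from the mouse named in the labels. Deviations of paired libraries from their group means correlated between -0.02 and 0.78 in Pro/Pro;Cas9/+ cells, where the member calls lie. The range was 0.47 to 0.73 in Pro/+;+/+ and 0.18 to 0.59 in +/+;Cas9/+ cells. P-values carry a Benjamini-Hochberg adjustment over 12599 genes and rest on 2 mice per genotype. The fits were tested on simulated data with known changes. Of simulated log2 changes of 1, 90% were recovered for both guides against gMock in Pro/Pro;Cas9/+ cells and 84% between the guides. For Pro/Pro;Cas9/+ against +/+;Cas9/+ cells under gMock it was 43%. The simulated spread between mice was set equal to that within mice, which the real genes need not match. Tables and sequences (GENCODE M21) were handled in Python 3.11.15 (pandas 2.3.3, numpy 2.4.6), and figures were drawn with matplotlib 3.10.9.

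All 10 members are named, and of each list of other genes up to 4 that passed, otherwise the 2 with the smallest p for both guides against gMock in Pro/Pro;Cas9/+ may be. Efemp1, Efemp2 and the marker genes follow from those lists. The likeness to Mfap5 names the 5 nearest genes. The members and lists were chosen with earlier results of these data known.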

Additional observations from a re-analysis of the deposited data

Results flagged for a closer look

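Several within-mouse differences had one sign in all pairs of 1 genotype and the other sign in all pairs of another. Such splits occurred among all tested genes too, and whether the members had more of them was not tested. For gLmna-2 minus gLmna-1, 16.5% of all genes had one between Pro/Pro;Cas9/+ and Pro/+;+/+ cells (3 of the 8 members). Between Pro/Pro;Cas9/+ and +/+;Cas9/+ cells it was 7.79% (2 of 8), and between Pro/+;+/+ and +/+;Cas9/+ cells 18.5% (0 of 8). For the guides against gMock, 3.25% had one between Pro/+;+/+ and +/+;Cas9/+ cells (1 of 8). Between Pro/Pro;Cas9/+ cells and Pro/+;+/+ or +/+;Cas9/+ cells it was 1.96% and 0.484% (0 of 8 each). For gLmna-2 minus gLmna-1 on the log2(FPKM + 1) scale, Mfap2 was lower in both Pro/Pro;Cas9/+ mice (-2.14 and -0.44) and higher in both Pro/+;+/+ mice (0.10 and 0.55), a gap of the means of -1.62. Fbln1 was lower in both Pro/Pro;Cas9/+ mice (-0.77 and -0.25) and higher in both Pro/+;+/+ mice (0.16 and 0.32), a gap of -0.75. For Mfap5 the gap was -0.25 to Pro/+;+/+ and -0.30 to +/+;Cas9/+ cells, with differences of -0.24 and -0.06 in the Pro/Pro;Cas9/+ mice, 0.04 and 0.16 in the Pro/+;+/+ mice and 0.01 and 0.28 in the +/+;Cas9/+ mice. Fbln2 went the other way, with 0.19 in both Pro/Pro;Cas9/+ mice and -0.29 and -0.02 in the +/+;Cas9/+ mice, a gap of 0.35. For the guides against gMock, Emilin1 was between -0.13 and -0.004 in the 4 pairs of Pro/+;+/+ and between 0.007 and 0.28 in those of +/+;Cas9/+, a gap of -0.14. As the effect in +/+;Cas9/+ minus that in Pro/+;+/+ this difference was tested and did not pass (0.14, SE 0.19, adjusted p = 0.96 in limma). The differences between genotypes in gLmna-2 minus gLmna-1 were not tested.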

How the results depend on the processing

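The counts of members past the threshold depended on the fit, in Pro/Pro;Cas9/+ cells above all. For both guides against gMock the count was 1, and 0 without the replicate block, with libraries of this genotype alone, without the filter on low values and with median-ratio scaling; it was 0 to 3 when single libraries were left out. For gLmna-1 against gMock it was 3, and 0 without the replicate block, with this genotype alone and without the filter, and 0 to 7 with single libraries left out. For gLmna-2 against gMock it was 1, and 0 under the same 3 settings and with median-ratio scaling, and 0 to 1 with single libraries left out. Between the guides it was 1, 0 without the replicate block and with this genotype alone, 2 with a pseudocount of 0.1 and with median-ratio scaling (Emilin1 and Fbln1), and 0 to 5 with single libraries left out. For both guides in +/+;Cas9/+ cells it was 0, and 0 to 1 with single libraries left out, when Mfap5 passed without either gMock library of Pro/Pro;Cas9/+. Every other comparison stayed at 0 in each alternative run, the replicate block over the 6 mice for genotypes included. No called member changed its sign, and 70 of 2482 values of members that were not called did. A fit without the filter tests more genes, and one with fewer samples has fewer degrees of freedom; the cause of the other changes was not tested. With 2 mice per genotype, the SE of a genotype difference under gMock was 0.19 for Fbln1, 0.51 for Mfap5 and 1.06 for Fbn2 on the log2 scale. Eln and Mfap4 rest on too few reads to compare groups.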
